A study of Mus musculus with 6 samples.

Results

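Cell cycle and DNA replication genes were followed as a set of 40 genes in single-cell RNA sequencing (scRNA-seq) libraries of 6 mice. The set was taken by gene symbol from the 32285 genes of the count files. No measured value entered the rule, but earlier results of these data were known when the set was chosen. All 40 genes had at least 1 unique molecular identifier (UMI, which counts 1 captured RNA molecule) in a named cell class. It holds 18 genes of DNA replication and S phase, called replication members here, and 22 genes of the G2 phase and mitosis, called mitosis members. Each library came from 1 mouse and each group had 1 library, so no difference between treatments could be tested, and a difference between mice or library preparations cannot be told apart from a treatment effect.

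The control mouse received solvent and control rat IgG. Single treatments were 2-deoxy-D-glucose (2DG, a glucose and mannose analog used to inhibit branched N-glycans), 2-fluoro-L-fucose (2FF, a fucose analog that inhibits fucosylation) and an antibody to the checkpoint ligand PD-L1 (anti-PD-L1). The combined treatments were 2DG plus anti-PD-L1, called the 2DG combination here, and 2FF plus anti-PD-L1, called the 2FF combination. The mice were female C57BL/6, aged 6 to 8 weeks, and bore orthotopic ovarian tumors of KPCA cells, a homologous recombination-proficient line with mutant Trp53 that overexpresses Akt2 and Ccne1, the latter also a member of the set. Tumor cells of the 2FF groups had been kept in 2FF before injection, and after implantation these mice received 2FF by oral gavage every 2 days. 2DG was given every 2 days and anti-PD-L1 2 times a week for 3 weeks, both after day 9, and mice were sacrificed on day 30. These facts follow the methods, whereas the sample labels name lymph node as tissue and the series text speaks of young and aged mice, which was not resolved here. Where 6 values stand in a row, they run from control through the single treatments (2DG, 2FF, antibody) to the combinations, with 2DG first.

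A cell that divides first copies its DNA in S phase and then separates the copies in mitosis. Cyclin E with its kinase opens S phase, the MCM complex unwinds the DNA, PCNA clamps the polymerases to it, and Tyms, Dut, Tk1 and ribonucleotide reductase supply the nucleotides. Cyclins A and B with Cdk1 then drive the cell into mitosis, where Aurora and Polo kinases, kinesins and kinetochore proteins move the chromosomes before Cdc20 and Ube2c mark the cyclins for destruction. Transcription of the replication genes is controlled largely by E2F factors, and that of the mitosis genes by complexes that bind the cell cycle genes homology region (CHR) and by NF-Y at CCAAT boxes. In tumors, activated T cells are among the immune cells that divide most, some macrophages and dendritic cell precursors divide locally, and mature neutrophils have left the cycle.

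The promoters of the members carried these motifs at shares that differed between the replication and the mitosis members. Promoter windows of 300 bases (250 before and 50 after the annotated start, from RefSeq, build GRCm38.p6) were matched for 33 of the 40 members, 15 replication and 18 mitosis members. Both strands were searched for the CHR (TTTGAA or TTCGAA), the box bound by NF-Y (CCAAT) and the E2F site (TTTCCCGC, TTTGGCGC, TTTGCCGC or TTTCGCGC). A CHR was found in 13 of the 18 mitosis members (72.2%), in 2 of the 15 replication members (13.3%) and in 21.7% of all 27025 genes with a window. A CCAAT box was found in 16 mitosis members (88.9%), 10 replication members (66.7%) and 41.1% of all genes, and both motifs together in 72.2%, 13.3% and 8.61%. The E2F site showed the opposite split, with 7 replication members (46.7%), 1 mitosis member (5.56%, Cdk1) and 2.61% of all genes. These matches describe the letters of the windows and show no binding. The 200 bases before the start are printed for 3 mitosis and 3 replication members, chosen to show each pattern, with CHR, CCAAT and E2F letters in capitals on either strand.
Mki67, chr7:135716380-135716579, minus strand: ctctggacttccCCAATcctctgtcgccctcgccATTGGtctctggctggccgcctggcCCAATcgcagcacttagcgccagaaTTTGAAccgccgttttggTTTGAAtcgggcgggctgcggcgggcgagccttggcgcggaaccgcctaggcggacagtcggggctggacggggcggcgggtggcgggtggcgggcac
Top2a, chr11:99024190-99024389, minus strand: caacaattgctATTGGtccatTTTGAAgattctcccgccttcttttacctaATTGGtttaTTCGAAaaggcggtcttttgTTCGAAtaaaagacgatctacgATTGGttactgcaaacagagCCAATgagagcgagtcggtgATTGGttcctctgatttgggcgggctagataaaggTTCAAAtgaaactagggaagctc
Ccnb2, chr9:70421555-70421754, minus strand: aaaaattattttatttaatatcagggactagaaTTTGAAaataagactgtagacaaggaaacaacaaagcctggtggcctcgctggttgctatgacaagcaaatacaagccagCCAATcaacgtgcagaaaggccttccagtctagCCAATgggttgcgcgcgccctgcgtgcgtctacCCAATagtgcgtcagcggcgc
Mcm5, chr8:75109309-75109508, plus strand: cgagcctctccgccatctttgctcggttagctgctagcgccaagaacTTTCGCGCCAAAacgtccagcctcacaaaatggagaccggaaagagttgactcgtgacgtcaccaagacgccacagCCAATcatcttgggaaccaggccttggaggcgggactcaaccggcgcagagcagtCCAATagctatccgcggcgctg
Mcm6, chr1:128359706-128359905, minus strand: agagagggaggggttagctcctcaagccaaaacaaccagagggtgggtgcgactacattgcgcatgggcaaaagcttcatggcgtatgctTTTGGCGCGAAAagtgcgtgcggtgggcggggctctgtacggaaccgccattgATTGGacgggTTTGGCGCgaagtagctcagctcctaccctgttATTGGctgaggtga
Pola1, chrX:93632156-93632355, minus strand: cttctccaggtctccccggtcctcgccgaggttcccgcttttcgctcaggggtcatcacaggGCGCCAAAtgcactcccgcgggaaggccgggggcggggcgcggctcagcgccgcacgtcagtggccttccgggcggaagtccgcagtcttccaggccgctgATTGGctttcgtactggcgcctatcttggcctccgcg
The Mki67 stretch held 2 CHR and 3 CCAAT boxes, that of Top2a 4 CHR and 5 CCAAT boxes, and that of Ccnb2 1 CHR and 3 CCAAT boxes, with no E2F site in any of them. The Mcm5 stretch held 2 E2F sites on opposite strands that overlap each other by 4 letters, Mcm6 held 3, of which 2 overlap in the same way, and Pola1 held 1, with no CHR in any of them and CCAAT boxes in all 3.

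**Figure D1:**
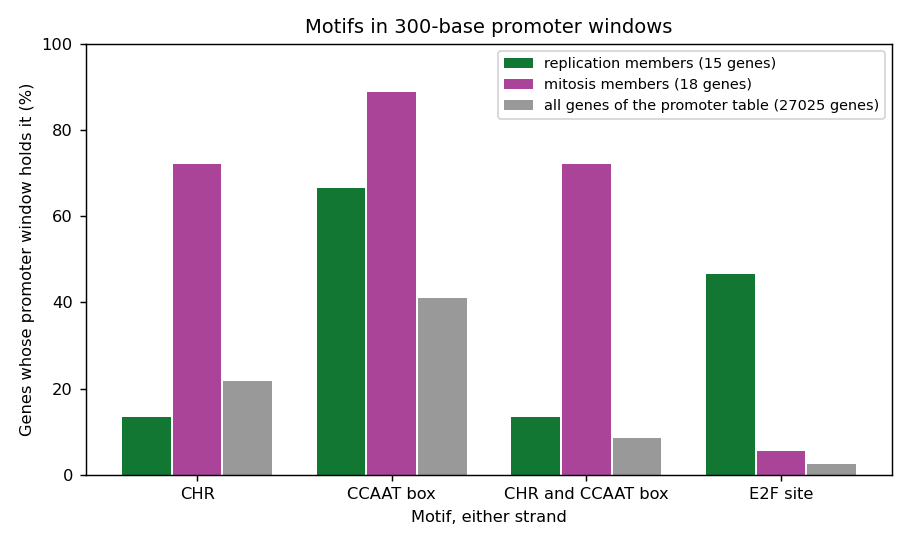
Bars give the share of genes (y axis, %) whose promoter window of 300 bases holds a CHR, a CCAAT box, both, or an E2F site on either strand (x axis), for the replication members (green, 15 genes), the mitosis members (purple, 18 genes) and all genes of the promoter table (grey, 27025 genes). The purple bars stand highest for CHR (72.2%) and CCAAT (88.9%), and the green bar stands highest for E2F (46.7%).

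Cells were kept when they had at least 250 genes and at most 5% mitochondrial UMIs, which left 51633 cells, 7703 to 9222 per library, with median UMIs per cell between 6196 and 7732. They were placed into classes by marker UMIs that exclude every member, for example CD8 T cells by 2 or more Cd3d plus Cd3e UMIs with Cd8a or Cd8b1 and no Cd4 or Foxp3, and macrophages by 10 or more UMIs of the C1q genes, which gave 38314 cells in 17 classes. The 5 marker genes held out of each gate were higher inside than outside it, except for endothelium (0 of 5), which is not used below. Other T cells, which met the T cell gate and no narrower one, had no held-out markers and were not checked. Cells meeting the gates of 2 or more lineages (265 to 467 per library) and cells meeting none (1603 to 2748) were left out, while pairs of libraries shared 16 to 34 barcodes. Close to the gates lay 111 to 172 macrophages per library, with fewer than 15 C1q UMIs, and 8 to 103 CD8 T cells, with exactly 2 CD3 UMIs. Tumor cells numbered 5 to 31 per library, so the set describes immune cells here. A cell with 2 or more UMIs of Mki67 and Top2a together is called cycling, and since both genes are members, this share is a property of the set and not independent of it. Shares carry exact Clopper-Pearson intervals, and ratios of summed UMIs carry intervals from the exact binomial split of those UMIs, both at 95% and for counting error only. The split treats UMIs of the same cell as independent, so the intervals of ratios leave out the spread between cells and are too narrow for it.

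Median shares of cycling cells over the libraries were 28.9% in regulatory T cells (Treg), 25.998% in type 1 dendritic cells (DC), 22.1% in CD8 T cells and 20.8% in conventional CD4 T cells, against 8.61% in macrophages, 2.90% in monocytes and 2.06% in neutrophils. Because a deeper cell more readily shows 2 UMIs, each cell was also thinned to 2000 UMIs, with shallower cells left out (4 to 21 CD8 T cells, 18 to 83 macrophages and 13 to 210 neutrophils per library). Thinned shares are expected values, so their intervals apply the same formula to an expected count and are approximate. Thinning takes a larger part of the UMIs from a deep cell than from a shallow one. Thinned shares of classes that differ in UMIs per cell therefore depend on that difference too. Medians over the 6 libraries after thinning were 10.7% in Treg, 9.45% in type 1 DC, 8.31% in CD8 T cells, 7.28% in other T cells, 7.20% in conventional CD4 T cells, 2.25% in type 2 DC, 2.11% in macrophages, 1.51% in mature DC, 1.39% in neutrophils, 1.26% in B cells and 0.386% in monocytes. NK cells, with 5 libraries of enough cells, had a thinned median of 2.77% and were left out of the order. Of the 10 pairs of neighbours in this order, the first of the pair was higher in 6 of 6 libraries for conventional CD4 T cells over type 2 DC (mean difference 4.62 percentage points, SD 2.18, n = 6) and for macrophages over mature DC (0.787, SD 1.01). An exact two-sided sign-flip permutation test over the 6 libraries gave p = 0.03125 for both, the smallest value it can give, and 0.156 after Benjamini-Hochberg adjustment over the 10 pairs, so no pair passed the adjusted threshold. The pairs were set by the order of the same shares, and 2 pairs at the smallest value reach only 0.156. The test therefore cannot decide whether neighbouring classes differ. The other 8 pairs had exact permutation p of 0.0938 or more.

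The unthinned share in Treg was 17.7% with the 2DG combination, 34.0% with the 2FF combination and between 23.4% and 31.0% in the other 4 libraries. It was 35.6%, 37.6%, 25.8%, 25.7%, 18.5% and 26.2% in type 1 DC. In neutrophils, which should be past division, it was 1.12% of 2501 cells in the control library, 6.05% of 215 in the 2DG library, and 0.697%, 1.54%, 2.58% and 3.18% in the rest. Neutrophils were also the shallowest class, with median UMIs of 2452 to 3973 against 9386 to 13534 in macrophages and 5956.5 to 8116 in CD8 T cells. After thinning, neutrophils gave 0.283%, 2.74%, 0.782%, 1.05%, 1.72% and 2.13%. CD8 T cells lay above these values in 6 of 6 libraries, whereas macrophages (4.41%, 2.36%, 1.68%, 2.49%, 1.41% and 1.86%) lay below them in the 2DG library and in both combinations and above those of monocytes (0.272% to 0.621%) in 6 of 6. Before thinning, macrophages lay above neutrophils in the 2DG library (9.09% against 6.05%). The same held in the 2DG combination (8.12% against 2.58%) and in the 2FF combination (7.98% against 3.18%). In those 3 libraries the neutrophil shares rested on 13, 4 and 7 cycling cells, and the thinned intervals of the 2 classes overlapped. The 13 cells of the 2DG library held 532 replication and 716 mitosis UMIs. Whether these neutrophils were dividing was not tested, so the neutrophil share gives no level without division for macrophages. Neutrophils called cycling had median UMIs of 7268.5 to 21073 against 2446 to 3949 in the rest, and their summed macrophage markers (0 to 159 CPM, UMIs of a gene per 1000000 UMIs of the class) were below those of the other neutrophils (250.4 to 406). Their summed CD8 T cell markers were 455 CPM against 114 CPM in the other neutrophils of the 2DG library and 381 against 163 CPM in the 2FF combination, the 2 libraries with the highest neutrophil share, and between 24.4 and 135 CPM in the rest. In the cycling neutrophils of the 2DG library and of the 2FF combination, only 2 of the 5 markers had a UMI. The sums there were 106 UMIs in 13 cells and 57 UMIs in 7 cells. The part of these markers in the neutrophil shares was not tested.

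**Figure D2:**
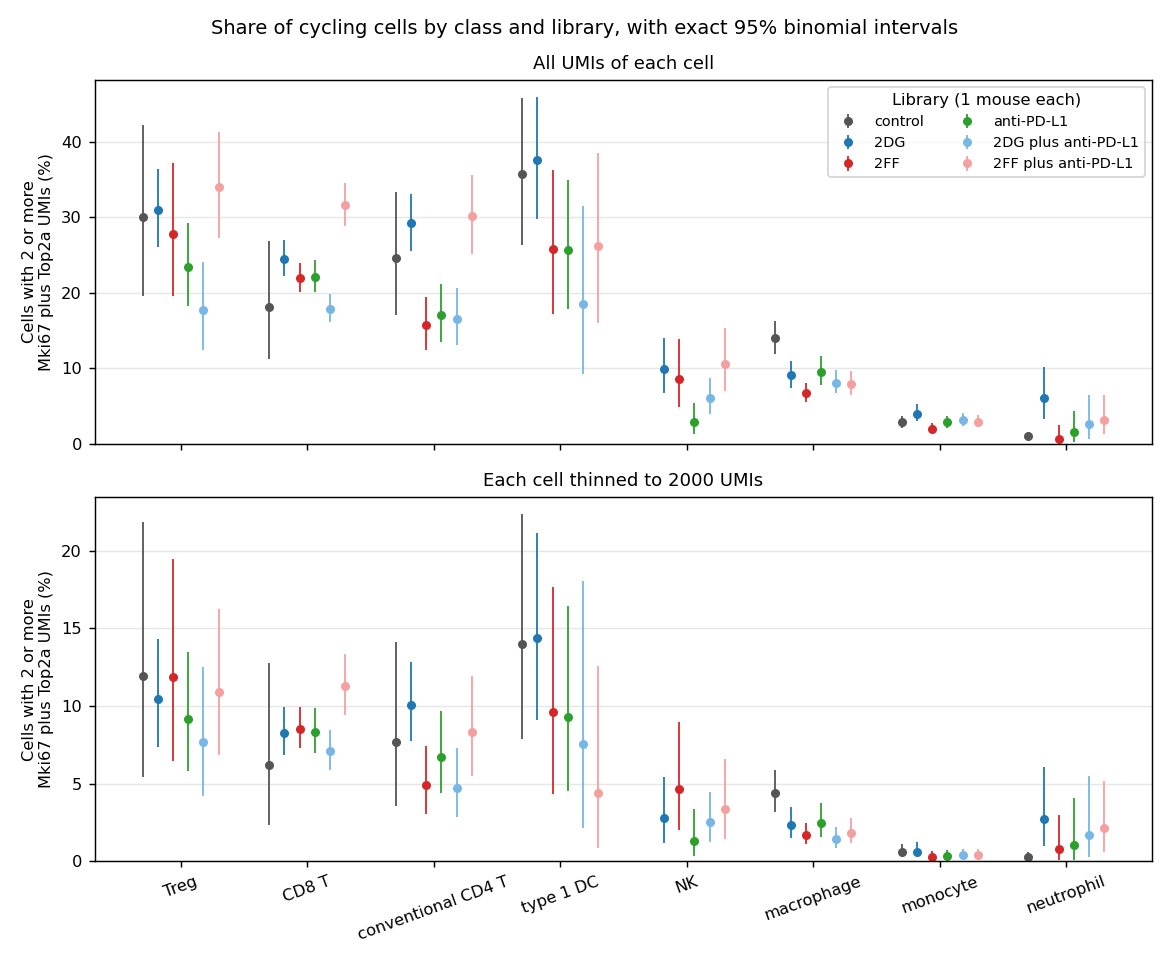
Points give the share of cells with 2 or more Mki67 plus Top2a UMIs (y axis, %) by class (x axis) and library (colour, 1 mouse each), with all UMIs (top) and after thinning each cell to 2000 UMIs (bottom). Lines give 95% binomial intervals, exact in the top panel and approximate in the bottom panel, where the count is an expected one. CD8 T cells of the 2FF combination library stand at 31.6% and control macrophages at 13.96% in the top panel, and NK cells of the control library (23 cells) have no point.

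The classes that made up the cycling cells differed between the control library and the other 5. The control library held 472 cycling cells (5.20% of its cells) and the others 1087, 954, 841, 790 and 902 (14.1%, 10.3%, 9.56%, 8.75% and 11.6%). T cells of all kinds were 16.7% of the cycling cells of the control library and 59.6%, 58.8%, 58.5%, 53.0% and 58.5% in the others, beside 3.93% and 22.4% to 32.4% of all cells. CD8 T cells alone were 4.03% of the cycling cells in the control library and 28.6% to 43.2% elsewhere, and macrophages were 29.4% in the control library and 8.56% to 13.7% elsewhere. Neutrophils were 27.6% of the control cells but 5.93% of its cycling cells. These shares follow the number of cells of each class as well as their division, and the next values are therefore given within a class.

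**Figure D3:**
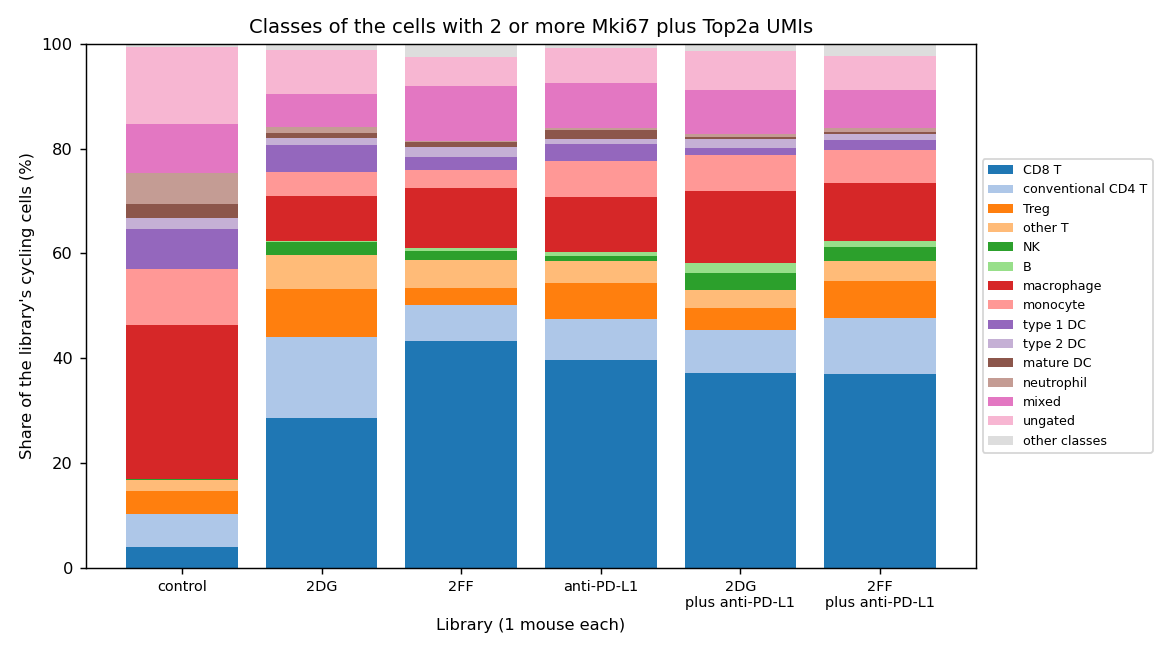
Stacked bars give the classes (colours) of the cycling cells of each library (x axis) as a share of that library's cycling cells (y axis, %). The dark blue CD8 T segment is 4.03% in the control library and 28.6% to 43.2% in the other libraries, and the red macrophage segment is 29.4% in the control library.

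CD8 T cells numbered 105, 1269, 1872, 1509, 1636 and 1058, and 18.1%, 24.5%, 22.0%, 22.1%, 17.9% and 31.6% of them were cycling. The 2FF combination share (95% interval 28.8% to 34.5%) lay above the intervals of the other 5 libraries, and the control share rested on 19 cells (11.3% to 26.8%). The interval of the 2DG combination (16.1% to 19.9%) lay below those of every other treated library and overlapped that of control. CD8 T cells of the 2FF combination were also the deepest (median 8116 UMIs). After thinning the shares were 6.19%, 8.28%, 8.55%, 8.33%, 7.08% and 11.3%, where the interval of the 2FF combination (9.45% to 13.4%) cleared that of the 2DG combination but overlapped the others. The 40 members together took 0.186%, 0.195%, 0.224%, 0.210%, 0.193% and 0.260% of all CD8 T cell UMIs, a share in which deeper cells weigh more. Cycling CD8 T cells were deeper than the others in every library. In the 2FF combination their median was 10697 against 7474 UMIs, and they held 41.7% of the UMIs. A level below is in CPM and is compared between libraries, not between genes. A higher level can come from more cycling cells or from more RNA per cell.

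Among the replication members of CD8 T cells, the control library had the lowest level of the clamp gene, of Pola1 and of 3 of the 6 helicase subunits. Mcm2, a subunit of the replicative helicase, measured 24.2, 34.7, 30.1, 34.9, 27.3 and 36.4 CPM. Its partner Mcm5 measured 31.4, 34.3, 32.7, 48.1, 31.2 and 38.2 CPM, highest with anti-PD-L1 alone. Pcna, the sliding clamp, measured 112, 127, 145, 128, 139.8 and 169 CPM, highest in the 2FF combination. Mcm4, also of the helicase, measured 32.6, 59.3, 54.6, 56.3, 47.1 and 50.99 CPM, with the control value below the other 5. Pola1, the catalytic subunit of the primase-bound DNA polymerase, measured 77.3, 128, 126, 143, 120.1 and 141 CPM, again lowest in the control library (64 UMIs).

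Of the nucleotide genes, Tyms, Rrm2 and Dut were highest in the 2FF library. Tyms, which makes thymidylate, measured 21.7, 27.4, 39.4, 29.3, 33.6 and 36.01 CPM in CD8 T cells. Rrm2, the regulated subunit of ribonucleotide reductase, measured 19.3, 20.5, 30.6, 23.1, 25.04 and 27.99 CPM. Dut, which removes dUTP, measured 91.8, 112, 160.2, 122, 123 and 125 CPM, with the 2FF value above the other 5. Pclaf, a PCNA-binding factor, measured 84.6, 85.00, 108, 90.7, 85.4 and 119 CPM and was highest in the 2FF combination. Cyclin E2, encoded by Ccne2, ranged from 6.04 CPM in the control library (5 UMIs) to 8.85 CPM, and Ccne1 measured 7.25, 11.7, 14.1, 12.5, 13.3 and 14.5 CPM (6 UMIs in the control library), so both control values are loosely fixed.

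All mitosis members of CD8 T cells except Aurka, Plk1 and Stmn1 were highest in the 2FF combination. The share of all genes that were highest in that library was not counted, and its CD8 T cells were the deepest (median 8116 UMIs). Mki67, which coats mitotic chromosomes, measured 188, 161, 174, 157, 158 and 223 CPM, and Top2a, which untangles DNA before it is divided, measured 210.2, 168, 187, 172, 169 and 243 CPM. Both had their second highest value in the control library. Cdk1, the mitotic kinase, measured 19.3, 18.5, 29.5, 18.9, 20.4 and 35.1 CPM, with the 2 libraries that received 2FF highest. Its partner cyclin B1 (Ccnb1) measured 13.3, 8.47, 14.8, 11.6, 9.93 and 16.8 CPM, lowest with 2DG. Ube2c, the conjugating enzyme that starts cyclin destruction, measured 51.9, 39.7, 59.2, 42.3, 43.3 and 87.3 CPM, and Cenpf, a kinetochore protein, 49.5, 36.3, 47.01, 37.1, 33.5 and 63.5 CPM, so that both again had the 2FF combination at the top. Birc5 (survivin, of the chromosomal passenger complex) measured 26.6, 32.02, 49.3, 45.2, 37.03 and 57.03 CPM and Stmn1, which destabilizes microtubules, 93.01, 112, 159.6, 151, 123 and 154 CPM. For these last 2 the control value was the lowest and the 2FF libraries stood near the top.

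Set against control, the members of CD8 T cells were near all genes with 2DG and higher with 2FF. The comparisons use the log2 ratio of CPM plus 5, which understates the change of low genes, for genes whose UMIs in the 2 libraries add up to 50 or more, and all 40 members met this in CD8 T cells. With 2DG over control 23 of 40 members were above 0, beside 51.1% of 9570 genes, with a median of 0.062 against 0.0099 for all genes. The highest were Mcm4 (0.77), Pola1 (0.70) and Mcm7 (0.59), all replication members, and the lowest were Plk1 (-0.68, the Polo kinase), Ccnb1 (-0.44) and Cenpe (-0.41, a kinetochore motor), all mitosis members. The medians of the replication and mitosis members were 0.22 and -0.12. With 2FF over control 30 of 40 were above 0, beside 54.3% of 10174 genes, with a median of 0.20 against 0.042. Birc5 (0.78), Ccnb2 (0.78, cyclin B2) and Cks2 (0.77, a Cdk subunit) were highest, and Plk1 (-0.44), Cenpe (-0.25) and Top2a (-0.16) were lowest. With anti-PD-L1 over control 27 of 40 were above 0, beside 54.5% of 9816 genes, with a median of 0.099 against 0.041. Pola1 (0.85), Mcm7 (0.82) and Ccnb2 (0.73) led, and Cenpe (-0.41), Cenpf (-0.37) and Hmmr (-0.35, a spindle protein) were at the other end. All 3 comparisons share the control library of 105 CD8 T cells. The summed level of the members differed from control by a log2 ratio of 0.072 (-0.0035 to 0.15), 0.27 (0.20 to 0.35) and 0.18 (0.10 to 0.25) for 2DG, 2FF and anti-PD-L1.

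Set against anti-PD-L1 alone, the members of CD8 T cells were higher when 2FF was added and near all genes when 2DG was added. For the 2FF combination over antibody alone, 33 of 40 were above 0, beside 44.2% of 10794 genes, with a median of 0.30 against -0.032. The mitosis members had a median of 0.45 and the replication members 0.094. Ube2c was highest (0.97, from 839 against 448 UMIs), followed by Cdk1 (0.75) and Cenpf (0.70), and the lowest were Mcm5 (-0.30), Mcm4 (-0.13) and Tk1 (-0.12, thymidine kinase). The summed level gave 0.31 (0.28 to 0.33). For the 2DG combination over antibody alone, 17 of 40 were above 0, beside 40.8% of 10963 genes, and the median of -0.076 was close to that of all genes (-0.061). Ccne2 (0.23), Tyms (0.17) and Gins2 (0.15, of the replication fork complex) were highest and Mcm5 (-0.55), Plk1 (-0.46) and Mcm3 (-0.35) were lowest. The summed level gave -0.12 (-0.15 to -0.092). The cycling share was 17.9% against 22.1%, with intervals that were apart before thinning and overlapped after it.

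Set against each inhibitor alone, the members of CD8 T cells were higher with antibody added to 2FF and near all genes with antibody added to 2DG. For the 2FF combination over 2FF, 33 of 40 CD8 T cell members were above 0, beside 45.6% of 10969 genes, with a median of 0.22 against -0.020 and a summed level of 0.21 (0.19 to 0.23). Ube2c (0.52), Nusap1 (0.51, a spindle protein) and Ccna2 (0.50, cyclin A2) were highest, and Dut (-0.35), Gins2 (-0.22) and Tyms (-0.11) lowest. For the 2DG combination over 2DG, 22 of 40 were above 0, beside 44.3% of 10858 genes, with a median of 0.011 against -0.035 and a summed level of -0.014 (-0.042 to 0.015). Tyms (0.26), Rrm2 (0.24) and Aurkb (0.23, an Aurora kinase) were highest, and Mcm3 (-0.37), Mcm4 (-0.30) and Mcm2 (-0.30) lowest. The cycling share was 17.9% with the 2DG combination against 24.5% with 2DG, again with intervals apart before thinning only. The comparisons share the anti-PD-L1, 2DG and 2FF libraries with those above, so the counts are not independent of each other. In none of the 7 comparisons did a member of CD8 T cells reach a log2 ratio of 1 or of -1.

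**Figure D4:**
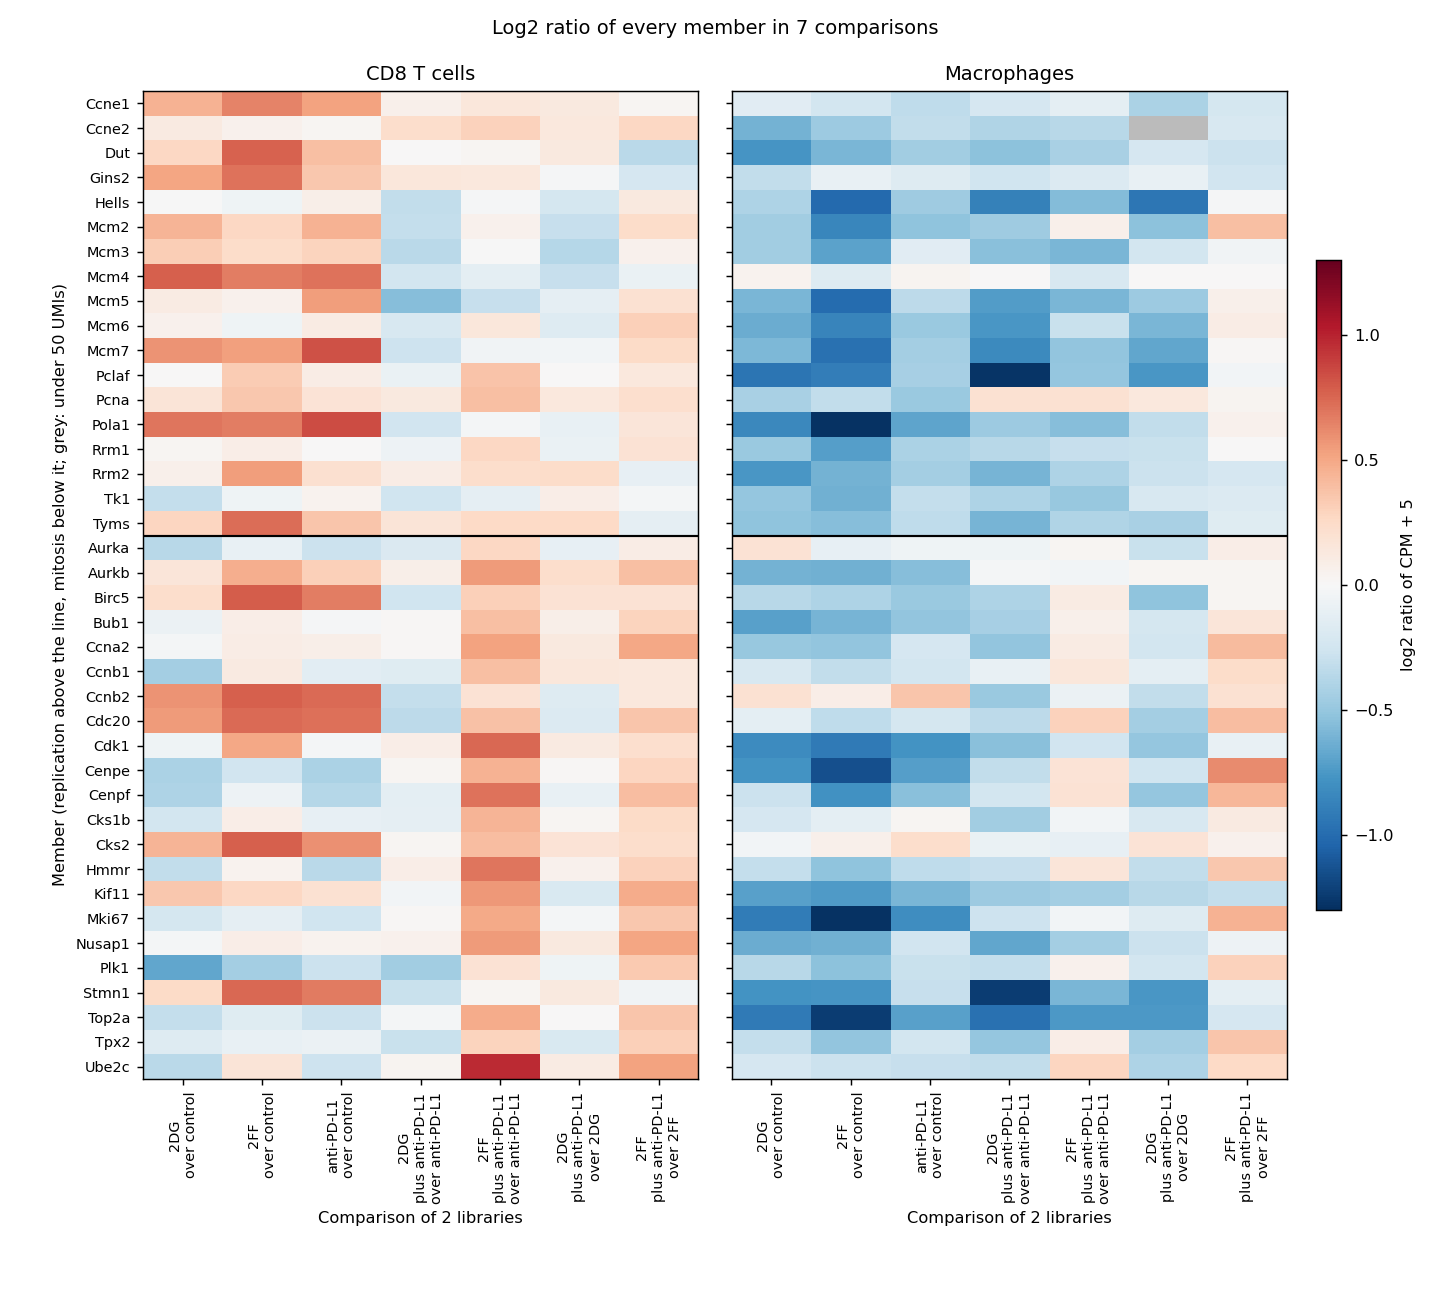
Colours give the log2 ratio of CPM plus 5 of each member (rows, replication members above the line and mitosis members below it) in 7 comparisons of 2 libraries (columns), for CD8 T cells (left) and macrophages (right), with red above 0 and blue below. In macrophages the 3 columns over control are almost wholly blue (2 to 4 of 40 members above 0), the CD8 T column for the 2FF combination over antibody alone is mostly red (33 of 40), and grey marks Ccne2, with under 50 UMIs.

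In macrophages the control library had the highest share of cycling cells and the highest summed level of the members. The macrophages numbered 996, 1023, 1610, 930, 1330 and 1266, and 13.96%, 9.09%, 6.77%, 9.57%, 8.12% and 7.98% were cycling. The control share (11.9% to 16.3%) lay above the intervals of the other 5, of which the highest was 7.76% to 11.6% with anti-PD-L1. Control macrophages were also the deepest (median 13534 UMIs against 9386 to 10374.5). After thinning, the control interval (3.21% to 5.89%) still cleared those of 2FF and both combinations, and overlapped those of 2DG and anti-PD-L1. The members took 0.101%, 0.0636%, 0.0561%, 0.0717%, 0.0481% and 0.0603% of macrophage UMIs. Markers of CD8 T cells (Cd3g, Trac, Nkg7, Gzmb and Ccl5, 5 of 5 with a UMI) summed to 99.5 CPM in control macrophages and 526, 1003, 451, 1145 and 593 CPM in the others, against 8501 to 14126 CPM in CD8 T cells. They were thus lowest where the members were highest, and their part in the member levels was not tested. In CD8 T cells the macrophage markers summed to 25.4 to 53.1 CPM.

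The replication members of macrophages had their highest level in the control library, with the exception of Mcm4. How many of all genes were highest in that library was not counted. Mcm2 measured 15.2, 9.78, 6.24, 9.06, 5.21 and 9.75 CPM and Mcm5 21.1, 12.3, 8.07, 15.6, 7.47 and 8.66 CPM. Pcna, which also acts in DNA repair, was more even at 101.8, 74.98, 80.6, 71.4, 82.7 and 82.6 CPM. Mcm4 stood apart from the other helicase subunits with 20.9, 21.7, 18.1, 21.6, 21.8 and 18.1 CPM. Tyms measured 15.2, 9.13, 8.81, 11.1, 5.58 and 7.35 CPM and Rrm2 8.74, 3.104, 3.98, 5.13, 1.66 and 2.69 CPM, the latter from 121 UMIs in the control library to 22 in the 2DG combination. Pclaf measured 40.4, 18.4, 19.3, 28.6, 8.90 and 18.8 CPM, lowest with the 2DG combination. Ccne1 and Ccne2 were low throughout, between 1.81 and 4.98 CPM and between 1.74 and 5.99 CPM, with the control library highest for both. Pola1 measured 70.8, 37.5, 25.99, 42.3, 29.04 and 27.1 CPM.

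Among the mitosis members of macrophages, the control library was highest for Mki67, at 89.7, 45.5, 33.8, 49.3, 40.1 and 47.9 CPM, and for Top2a, at 69.98, 34.5, 26.9, 40.95, 18.5 and 22.3 CPM. Top2a thus had its lowest values where anti-PD-L1 was combined with an inhibitor. Stmn1 measured 76.7, 42.8, 42.9, 61.4, 23.3 and 38.8 CPM, Birc5 25.1, 18.4, 17.9, 16.6, 11.3 and 18.3 CPM and Cdk1 15.4, 6.59, 5.75, 6.88, 3.17 and 5.02 CPM. In all 3 the control level was the highest. Ccnb1 was low, at 5.78, 4.33, 3.61, 4.15, 3.55 and 5.16 CPM. Ccnb2 and Cks2 did not share the pattern, with 12.9, 15.4, 13.9, 17.9, 11.4 and 16.7 CPM and 33.1, 32.2, 34.99, 39.6, 37.04 and 36.5 CPM, highest with anti-PD-L1.

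In macrophages nearly all members were lower with each single treatment than in the control library. With 2FF over control 2 of 40 members were above 0, beside 45.7% of 11545 genes, with a median of -0.61 against -0.031, and 5 members were at -1 or less, beside 1.72% of genes. Pola1 (-1.29), Mki67 (-1.29) and Top2a (-1.24) were lowest, and Ccnb2 (0.086), Cks2 (0.071) and Gins2 (-0.094) were highest. With 2DG over control 3 of 40 were above 0, beside 50.1% of 11243 genes, with a median of -0.49 against 0.00080. Pclaf (-0.95), Top2a (-0.92) and Mki67 (-0.91) were lowest, and Ccnb2 (0.19), Aurka (0.18, an Aurora kinase of the spindle poles) and Mcm4 (0.043) were those above 0. With anti-PD-L1 over control 4 of 40 were above 0, beside 53.1% of 11156 genes, with a median of -0.33 against 0.022. Mki67 (-0.80), Cdk1 (-0.78) and Cenpe (-0.71) were lowest, and Ccnb2 (0.36), Cks2 (0.23) and Mcm4 (0.037) highest. The summed levels gave -0.67 (-0.71 to -0.63) for 2DG, -0.85 (-0.89 to -0.81) for 2FF and -0.49 (-0.54 to -0.45) for anti-PD-L1. These 3 comparisons share the 996 control macrophages, which were deeper than the macrophages of the other libraries.

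Against anti-PD-L1 alone, the macrophage members were lower again when 2DG was added. For the 2DG combination over antibody alone, 2 of 40 were above 0, beside 37.3% of 10982 genes, with a median of -0.44 against -0.079, and 2 were at -1 or less, beside 0.401% of genes. These were Pclaf (-1.27) and Stmn1 (-1.23), followed by Top2a (-0.97), and the highest were Pcna (0.20), Mcm4 (0.0097) and Aurkb (-0.030). For the 2FF combination over antibody alone, 14 of 40 were above 0, beside 36.1% of 10986 genes, with a median of -0.15 against -0.079. Here the replication and mitosis members parted, with medians of -0.39 and 0.040. Cdc20 (0.30), Ube2c (0.28) and Pcna (0.20) were highest and Top2a (-0.75), Stmn1 (-0.60) and Mcm5 (-0.59) lowest. The summed levels gave -0.58 (-0.63 to -0.53) with 2DG and -0.25 (-0.30 to -0.20) with 2FF.

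The antibody added to 2DG left the macrophage members lower, and added to 2FF left them slightly higher. For the 2DG combination over 2DG, 4 of 39 members were above 0, beside 40.3% of 11080 genes, with a median of -0.32 against -0.052 and a summed level of -0.40 (-0.45 to -0.35). Hells (-0.94, a chromatin remodeller), Stmn1 (-0.76) and Pclaf (-0.75) were lowest and Cks2 (0.18), Pcna (0.13) and Aurkb (0.021) highest. For the 2FF combination over 2FF, 25 of 40 were above 0, beside 45.5% of 11380 genes, with a median of 0.031 against -0.021 and a summed level of 0.10 (0.060 to 0.15). Cenpe (0.61), Mki67 (0.45) and Cenpf (0.44) were highest and Kif11 (-0.31, a spindle kinesin), Dut (-0.28) and Gins2 (-0.25) lowest.

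Not every member was confined to cells called cycling, and most replication members were less so than most mitosis members. In CD8 T cells, cycling cells held 26.3% to 41.7% of all UMIs of the class. They held a median over libraries of 97.4% of the UMIs of Hmmr, 96.6% of Plk1, 96.6% of Ccna2 and 96.2% of Cenpf. Among replication members Pclaf (95.1%) and Rrm2 (91.3%) were as concentrated, while Mcm6 (45.0%), Mcm4 (51.8%), Pcna (53.8%) and Ccne1 (55.8%) were spread more widely. Among the mitosis members Cks2 (56.4%), Aurka (74.6%) and Kif11 (75.5%) had the lowest shares. In macrophages cycling cells held 9.14% to 19.8% of UMIs. Hmmr (91.6%), Plk1 (86.9%) and Ccna2 (84.9%) were again near the top, and Pcna (17.8%), Mcm4 (19.4%) and Cks2 (24.1%) were lowest. Mcm6, the lowest in CD8 T cells, was at 35.5% in macrophages, above Gins2 at 28.3%. The shares of Mki67 (93.8% and 86.3%) and Top2a follow from the definition of a cycling cell. Of Mcm4, Pcna and Cks2, the members with the lowest shares in macrophages, Mcm4 and Cks2 were not highest in the control library, whereas Pcna was. Ccnb2, also not highest there, had 60.3% of its macrophage UMIs in cycling cells. A low share and an even level thus did not always go together.

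**Figure D5:**
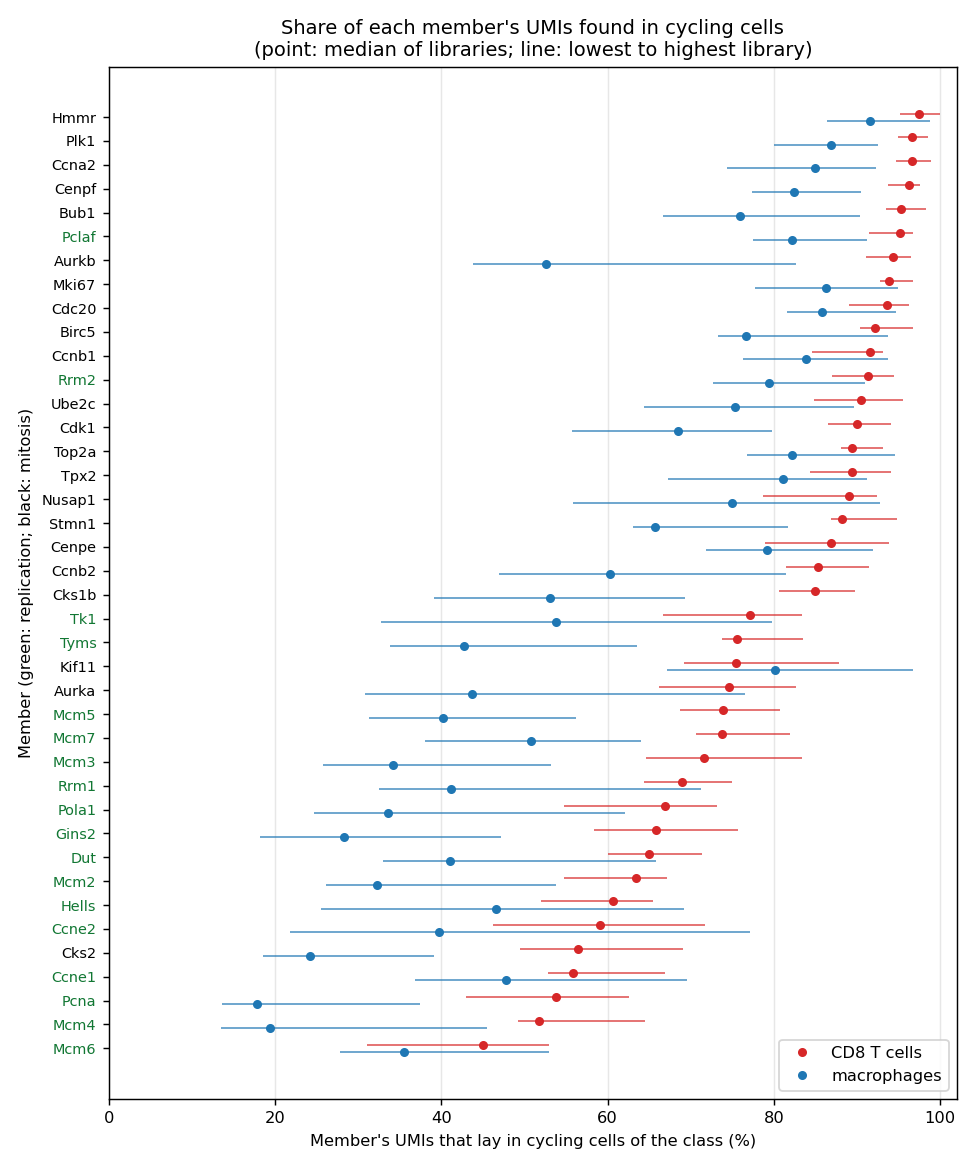
Points give, for each member (y axis), the median over libraries of the share of its UMIs that lay in cycling cells of the class (x axis, %), in CD8 T cells (red) and macrophages (blue), with lines from the lowest to the highest library, for libraries with at least 20 UMIs of the gene. Mitosis members (black names) fill most of the top, with Hmmr at 97.4% and 91.6%. Replication members (green names) fill most of the bottom, with Pcna at 53.8% and 17.8%. The replication members Pclaf (95.1% in CD8 T cells) and Rrm2 (91.3%) stand among the upper names.

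The balance of replication over mitosis UMIs also differed between libraries. In CD8 T cells the ratio of their summed UMIs was 0.837 (0.756 to 0.927), 1.08, 0.974, 1.06, 1.03 and 0.830 (0.809 to 0.851), lowest in the control and the 2FF combination libraries. In macrophages it was 0.940, 0.946, 0.956, 0.937, 1.03 and 0.810, again lowest in the 2FF combination. In CD8 T cells without a UMI of Mki67 or Top2a, 17.4%, 22.4%, 16.5%, 19.0%, 16.98% and 30.6% still had 5 or more replication UMIs, highest in the deepest library.

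In the other classes, comparisons are given as the log2 ratio of summed CPM. Type 2 DC with anti-PD-L1 were at -1.54 (-1.68 to -1.39) over control, the largest decrease against control among the classes described here. It rested on 10 cycling cells of 61 in the control library and 7 of 158 with anti-PD-L1. The intervals of these shares overlapped before and after thinning, and 10 members met the UMI minimum. Over control, conventional CD4 T cells of the 2DG library were at 0.47 (0.39 to 0.55) and Treg at -0.38 (-0.46 to -0.29). These 2 sums differed in sign, but whether the classes differed was not tested. Cycling Treg were 21 of 70 in the control library and 101 of 326 with 2DG. For both classes the intervals of the cycling shares overlapped before and after thinning. In control Treg the 21 cycling cells held 421 of the 565 replication UMIs and 981 of the 1020 mitosis UMIs. Conventional CD4 T cells were 24.6%, 29.2%, 15.7%, 17.1%, 16.6% and 30.2% cycling, and after thinning the share with the 2DG combination (4.72%) and that with 2DG (10.1%) had intervals that did not overlap. For the 2DG combination over 2DG the summed level was -0.53 (-0.59 to -0.48) in conventional CD4 T cells and -0.73 (-0.83 to -0.63) in type 1 DC. Type 1 DC, which take up dying cells and present their antigens to CD8 T cells, had summed levels of 2330.0, 2211, 1725, 1689.5, 1330.2 and 1285 CPM, highest in the control library, as in macrophages. NK cells of the 2FF combination were at 0.74 (0.63 to 0.86) over anti-PD-L1, from 10.6% against 2.90% cycling (25 and 9 cells). These NK cells were deeper (median 6196 against 4654.5 UMIs), and after thinning the shares were 3.37% and 1.28%, with intervals that overlapped. Neutrophils had summed levels of 240.5, 1425, 657, 482, 743 and 1215 CPM, lowest in the control library, which held most of the neutrophils, and the 2DG ratio over control was 2.57 (2.48 to 2.66). In the 2DG library 13 cycling neutrophils held 532 of the 581 replication UMIs and 716 of the 838 mitosis UMIs. CD8 T cell markers in all neutrophils summed to 25.1, 194, 231, 73.5, 101 and 197 CPM, also lowest in the control library, and their part in the member levels was not tested.

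By the median level over libraries, 16 members were highest in Treg, 11 in CD8 T cells, 9 in type 1 DC, 2 in neutrophils and 2 in conventional CD4 T cells. NK cells, with 5 libraries of enough cells, were left out. How many of all genes were highest or lowest in each class was not counted. The level is relative to all UMIs of a class and is not a number per cell. Cells of type 1 DC were deeper (median 11649 to 20501 UMIs) than Treg (5284.5 to 6756.5). Treg led for Mki67 (253 CPM), Top2a (209 CPM) and Pclaf (108 CPM), and CD8 T cells led for Mcm6 (123 CPM), Pcna (134 CPM) and Pola1 (127 CPM). Type 1 DC led for Cks1b (70.7 CPM), Ube2c (59.0 CPM) and Birc5 (50.4 CPM). Neutrophils led for Cks2, at 106, 185, 181, 138, 125 and 167 CPM over the 6 libraries. In the control library, which gave the first of these values, Mki67 was at 16.7 CPM, Stmn1 at 5.40 CPM and Top2a at 4.29 CPM. The other mitosis members of control neutrophils were at 2.67 CPM or less. Monocytes, with 244, 395, 309, 266, 277 and 293 CPM for all members together, had the lowest level for most members.

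Cycling CD8 T cells were compared with the other CD8 T cells of the same library for 6 genes of T cell state, a choice made after the data were seen. Tcf7, which encodes a factor of stem-like T cells, was lower in cycling cells in 6 of 6 libraries (mean log2 difference -1.10, SD 0.42, n = 6). Gzmb, the cytotoxic granzyme B, was higher in 6 of 6 (0.46, SD 0.29), though by 0.009 only in the 2FF library, and Ifng was lower in 6 of 6 (-0.32, SD 0.12). Each of the 3 gave p = 0.03125 in an exact two-sided sign-flip permutation test, the smallest possible, and 0.0625 after adjustment over the 6 genes, which misses the threshold. Pdcd1, which encodes PD-1 (mean -0.14, SD 0.19, exact permutation p = 0.125), Havcr2, which encodes TIM-3 (-0.079, SD 0.18, p = 0.344), and Slamf6 (-0.29, SD 0.33, p = 0.0938) differed by amounts within the spread over libraries. When the CD8 T cells were instead split by a Havcr2 UMI, those with one had the higher thinned cycling share in 6 of 6 libraries (8.08% to 13.3%, against 3.53% to 8.60% without). They were also the deeper cells (median 6599 to 8902 UMIs against 5108 to 7133).

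Other genes of the cycle, from 5 lists of 65 genes, were examined in the comparison of CD8 T cells and that of macrophages with the largest summed change, which was chosen after the values were seen. In CD8 T cells of the 2FF combination over antibody alone, 23 of 24 further mitosis genes were above 0 (median 0.31, beside 44.2% of all genes), led by Knl1 (0.72, a kinetochore scaffold) and Smc2 (0.64, a condensin), with Incenp and Ncapd2 (0.079) lowest. Of 18 further replication genes 8 were above 0 (median -0.017), with Asf1b (0.39) and Rfc4 (0.31) highest and Pold1 (-0.26) and Rpa2 (-0.17) lowest. Of 7 genes of G1 entry 3 were above 0, with Myc (0.99, from 202 against 86 UMIs) highest and Cdk6 (-0.28) lowest. Of 5 transcription factors of the cycle 4 were above 0, led by Foxm1 (0.26), and all 10 brakes on division were above 0 (median 0.24), led by Klf2 (0.44) and Btg2 (0.43). Mitosis genes and brakes were thus both higher in this comparison.

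In macrophages of 2FF over control, 0 of 24 further mitosis genes were above 0 (median -0.54, beside 45.7% of all genes), with Anln (-1.11) and Kif23 (-1.04), both of cytokinesis, lowest. Of 18 further replication genes only Rfc4 (0.15) was above 0, and Uhrf1 (-0.86), which maintains DNA methylation, and Lig1 (-0.68) were lowest. All 5 transcription factors were below 0, from E2f8 (-1.004) and E2f2 (-0.83) to Foxm1 (-0.28). Of 8 genes of G1 entry only Ccnd2 (0.17) was above 0 and Cdk6 (-0.70) was lowest. Of 10 brakes 4 were above 0, among them Cdkn2d (0.76) and Cdkn1a (0.63), which both encode inhibitors of cyclin-dependent kinases. The further mitosis genes had 24 of 24 above 0 in CD8 T cells for the 2FF combination over 2FF (beside 45.6% of genes) and 0 of 24 in macrophages for 2DG over control (beside 50.1%).

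The non-member genes whose level most resembled the summed members were Ncapd2 (Pearson r 0.965), Smc2 (0.963), Clspn (0.955), Cit (0.955) and Kif15 (0.953), over 62 pairs of class and library with at least 100 cells and among 9648 genes. They encode 2 condensin subunits, a replication checkpoint protein, a kinase of cytokinesis and a spindle kinesin. Classes of 1 library share its mouse, depth and free RNA, so these values describe likeness only.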

How the data were processed

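Dissociated tissue of 6 mice, 1 library per group, was profiled with a 10x 3′ kit. The authors deposited UMI counts per gene and cell, whole numbers without normalization, for barcodes already called as cells. The file headers name Cell Ranger 7.0.0 and the submitters' processing notes 3.1.0, with mm10 as the genome build, and whether intronic reads entered the counts is not given in the sources used here. Libraries held 8598 to 10412 cells and 61859753 to 73885214 UMIs. The members and all lists were chosen with earlier results of these data known.

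Cells with at least 250 genes and at most 5% mitochondrial UMIs were kept and gated into 17 classes by marker UMIs that leave out every member. Cells near simulated doublets (30 principal components, 30 neighbours, 0.8% expected per 1000 cells) numbered 475 to 680 per library and were kept in the values given, and removed in an alternative. UMIs were summed per class and library and compared as log2(CPM + 5). Thinned shares are the expected share at 2000 UMIs per cell, with shallower cells left out. Since each group had 1 library, treatments were compared without a test. A ratio counted as called at 1 or more or at -1 or less. Members above 0 are counted as a direction only, beside the share of all genes. Contrasts within libraries were tested with an exact two-sided sign-flip permutation test over the 6 libraries and adjusted by Benjamini and Hochberg. Intervals are at 95% and cover counting error only, exact except for thinned shares, where the formula is applied to an expected count. For ratios of sums they come from the binomial split of the UMIs, which leaves out the spread between cells.

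Named by rule were all 40 members as counts and ranges, 14 members with their level in every library (Mki67, Top2a, Stmn1, Pclaf, Birc5, Ccnb1, Cdk1, Pcna, Mcm2, Mcm5, Tyms, Rrm2, Ccne1 and Ccne2), the 3 highest and 3 lowest members of each comparison in CD8 T cells and macrophages, the 2 highest and 2 lowest of each further list, and the 5 genes most like the summed members. Levels in every library of Mcm4, Pola1, Dut, Ube2c, Cenpf, Ccnb2 and Cks2 were added after their values were seen. Ccnb1, Ccnb2, Stmn1, Tyms and Pcna have annotated pseudogenes with which reads could be shared, which was not tested. Promoter sequences came from RefSeq on GRCm38.p6. Alternatives changed the cycling threshold, the mitochondrial limit, the gates, the doublets, the UMI minimum, the added CPM and the centring. Statistics were tested on simulated data. Python 3.11.15, numpy 2.4.6, scipy 1.17.1, pandas 2.3.3, scikit-learn 1.9.0, statsmodels 0.14.6 and matplotlib 3.10.9 were used.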

Additional observations from a re-analysis of the deposited data

Results flagged for a closer look

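Cells that met the gates of more than 1 lineage entered no class and no comparison. By 2 or more Mki67 plus Top2a UMIs, 26.04% of them were cycling in the 2DG library, 21.4% with 2FF, 21.5% with antibody alone and 22.97% in the 2FF combination, and these 4 had intervals above that of the control library (12.6%, 95% interval 9.34% to 16.6%). Their median depth was 11959 to 14802 UMIs. After thinning to 2000 UMIs the share was 3.46% to 6.07%, and the control interval (1.78% to 6.01%) overlapped those of all 4.

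The summed members of CD8 T cells and macrophages had log2 ratios of opposite sign, with both intervals clear of 0, in 3 comparisons. The log2 ratio of CD8 T cells minus that of macrophages was 1.12 for 2FF over control, 0.67 for anti-PD-L1 over control, and 0.56 for the 2FF combination over antibody alone. In the last of these, 14 of 40 macrophage members were above 0, a share near that of all genes (36.1%). Their medians there were -0.39 for replication and 0.040 for mitosis members. For 2DG over control the ratios also had opposite signs, but the interval of CD8 T cells (-0.0035 to 0.15) included 0. These intervals leave out the spread between cells. In control CD8 T cells, 19 cycling cells held 432 of the 700 replication UMIs and 762 of the 836 mitosis UMIs. Before thinning, intervals of the CD8 T cell cycling shares overlapped for 2FF and for anti-PD-L1 over control. They were apart for the 2FF combination over antibody alone, and macrophage shares showed the reverse. After thinning, only the macrophage intervals for 2FF over control were still apart. With 1 library per group the differences between CD8 T cells and macrophages were not tested.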

How the results depend on the processing

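No paired analysis was possible because each group has 1 library, and leaving out a replicate was not possible for the same reason. With 1 library per group, CD8 T cells of the control library (105 cells) limit every comparison with control in that class.

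Shares of cycling cells in the library order of the report changed in size with the definition. With 1 UMI they were 34.3%, 47.2%, 44.4%, 41.4%, 38.4% and 55.2% in CD8 T cells and 25.6%, 22.8%, 19.3%, 20.2%, 20.2% and 18.9% in macrophages. With 3 UMIs the CD8 T cells of the treated libraries gave 14.7%, 13.8%, 14.2%, 10.9% and 20.6%, and macrophages gave 10.3%, 5.38%, 3.85%, 6.24%, 3.83% and 5.61%. Thinned to 2000 UMIs they were 6.19%, 8.28%, 8.55%, 8.33%, 7.08% and 11.3%, and 4.41%, 2.36%, 1.68%, 2.49%, 1.41% and 1.86%. With gates at 2 times the UMIs, CD8 T cells gave 26.98% with 2DG, 24.9% with antibody and 20.2% with the 2DG combination, and macrophages 17.3% in the control library and 9.72% in the 2FF combination.

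No median log2 ratio of the members changed sign. Those that moved by more than the counting error of the summed level are given by setting. With stricter gates, CD8 T cells gave 0.21 (antibody over control), -0.029 and 0.26 (2DG and 2FF combination over antibody) and 0.044 (2DG combination over 2DG), and macrophages -0.67 and -0.44 (2FF and antibody over control) and -0.42 (2DG combination over 2DG). For the combinations with 2DG and 2FF over antibody and the 2DG combination over 2DG, centring on all genes gave -0.015, 0.33 and 0.045 in CD8 T cells and -0.36, -0.075 and -0.27 in macrophages. In the same order, removal of doublet-like cells gave -0.54, -0.20 and -0.39 in macrophages, and in CD8 T cells -0.012 and 0.093 for the 2 comparisons with 2DG. With 1 CPM added, CD8 T cells gave 0.35 (2FF combination over antibody), and macrophages -0.64, -0.83 and -0.49 over control (2DG, 2FF and antibody), -0.62 and -0.25 over antibody, and -0.49 for the 2DG combination over 2DG. A mitochondrial limit of 10% and a minimum of 10 UMIs moved none of them.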
